A study of Mus musculus with 10 samples.

Results

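The 10 genes of bile acid synthesis followed here in livers of mice lacking both macroH2A genes were Cyp39a1, Cyp7a1, Cyp7b1, Cyp8b1, Cyp27a1, Hsd3b7, Akr1d1, Amacr, Baat and Slc27a5. They were found by name, as probe sets (groups of array probes for a transcript) that the platform annotation assigns to exactly that gene, and all 10 of them, out of 22180 named genes, had 1 such probe set each. Cyp39a1 was chosen by its log2 difference between double knockout and wild-type livers in these same arrays. The difference of Cyp39a1 is therefore given as a description, without a test, and the 9 other enzymes were added for their place in the pathway with their values known.

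The samples were 5 livers labelled macroH2A1 macroH2A2 double knockout and 5 labelled wild-type. All were livers of male mice of strain 129/S6 (taconic) aged 2 months, after an overnight fast of about 16 h. The sources used here do not give how the alleles were made. No label says outright that every array is from its own animal, so p-values measure the spread between arrays. Values are log2 expression levels, in which a difference of 1 is a doubling.

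Bile acids are made from cholesterol in hepatocytes, and each route begins with hydroxylation of the sterol. In the classic route CYP7A1 adds a hydroxyl group at the 7α position of cholesterol itself. In the other routes the side chain is oxidised first, by CYP27A1 to 27-hydroxycholesterol or by CYP46A1, an enzyme best known from neurons, to 24-hydroxycholesterol, and a 7α-hydroxylase then acts on the oxysterol. CYP7B1 does so mainly in the 27-hydroxycholesterol route and CYP39A1 in the 24-hydroxycholesterol route. Later enzymes, which the routes share, reshape the sterol rings, shorten the side chain and join the product to taurine or glycine.

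Cyp39a1 was the enzyme with the widest gap between the groups. Its level was 12.05, 11.79, 12.02, 12.04 and 12.00 in double knockout replicates 1 to 5, and 11.11, 10.80, 10.87, 11.61 and 10.86 in wild-type replicates 1 to 5. Every double knockout array lay above every wild-type array. The double knockout arrays averaged 11.98 ± 0.11 and the wild-type arrays 11.05 ± 0.34 (SD, n = 5 each), a log2 difference of 0.93 (SE 0.13), or 1.91-fold with a 95% interval of 1.56 to 2.33. Across all 25335 probe sets tested, 0.150% differed by at least as much in either direction. Wild-type replicate 4, at 11.61, was the wild-type array nearest to the double knockout arrays, and without it the log2 difference was 1.07 (SE 0.07).

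**Figure D1:**
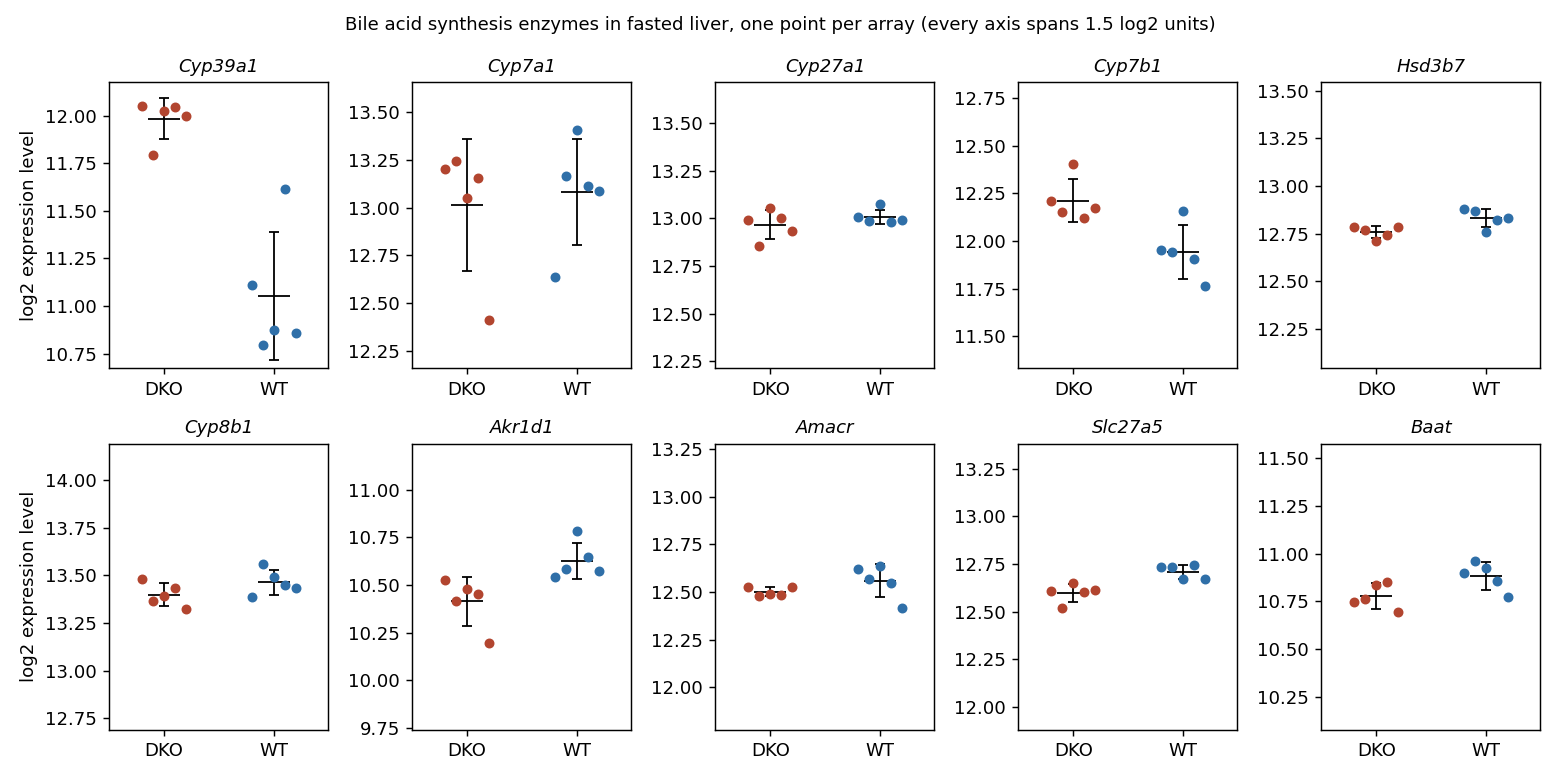
Log2 expression level of the 10 enzymes in double knockout (DKO, left) and wild-type (WT, right) livers. Each point is 1 array (n = 5 each), bars show mean ± SD, and every vertical axis spans the same 1.5 log2 units. Cyp39a1 is the panel with the clear gap, Cyp7a1 has a low array in each group, and Akr1d1 and Slc27a5 show narrow separations.

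Of the 10 enzymes, 1 (Cyp39a1) was called at an adjusted p under 0.05, where 0.884% of all probe sets tested were called. The choice of Cyp39a1 fixed that count, so nothing is read from it. The groups did not overlap for 3 of the 10 (Cyp39a1, higher, and Akr1d1 and Slc27a5, lower in double knockout livers), against 3.90% of all probe sets tested. The choice of Cyp39a1 fixed its part in that count, which leaves Akr1d1 and Slc27a5 among the 9 other enzymes. These 9 were also added with their values known, so nothing is read from their count. The double knockout mean was higher for 2 enzymes, Cyp39a1 being 1 of them by its choice, and lower for 8. The median difference was -0.07, also for the 9 other enzymes alone. Over all probe sets tested the median difference was -0.003 and 48.5% had a higher mean in double knockout livers. Of the 9 enzymes other than Cyp39a1, 3 had an unadjusted p under 0.05 (Cyp7b1, Akr1d1 and Slc27a5), where 15.1% of all probe sets reached that level. Nothing is read from that count either.

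**Figure D2:**
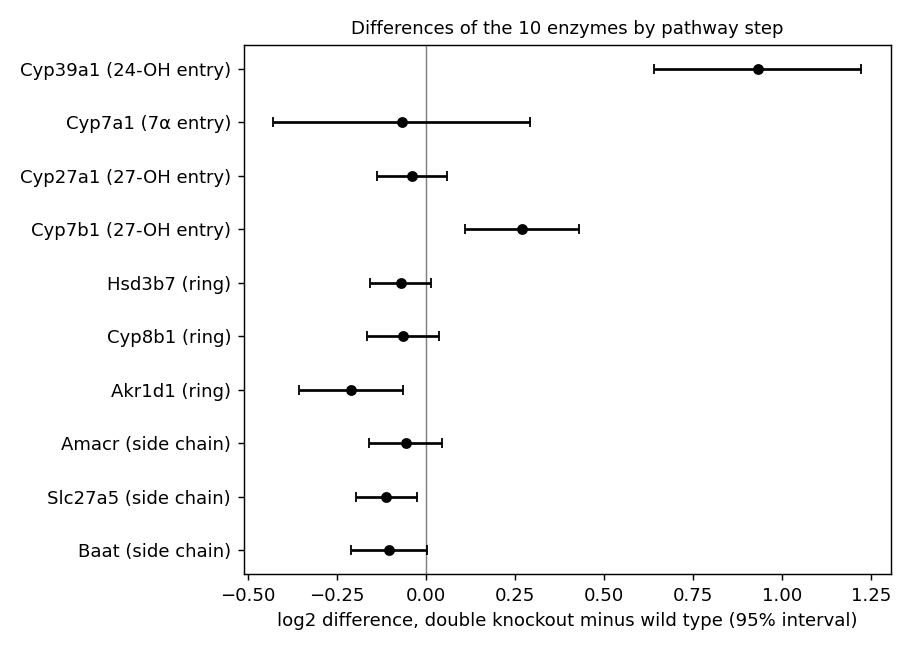
Log2 difference (double knockout minus wild type) of each enzyme with its 95% interval from the limma fit, ordered by pathway step. Cyp39a1, chosen for its difference, stands at 0.93 and Cyp7b1, not called, at 0.27, and the 8 other means lie between -0.21 and -0.04.

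Cyp7a1, the rate-limiting enzyme of the classic route, varied widely between arrays of the same group. Its level was 13.21, 13.24, 13.05, 13.16 and 12.41 in double knockout replicates 1 to 5, and 12.64, 13.17, 13.41, 13.12 and 13.09 in wild-type replicates 1 to 5. Each group had 1 low array, double knockout replicate 5 and wild-type replicate 1, and the rest overlapped. The log2 difference was -0.07 (SE 0.17, limma adjusted p = 0.897), with a 95% interval of -0.43 to 0.29. It turned to 0.08 without double knockout replicate 5 and to 0.01 without wild-type replicate 3. The within-group SD of Cyp7a1, 0.31, was larger than that of 98.1% of the probe sets tested, and that of Cyp39a1, 0.25, than that of 96.8%. The other 8 enzymes had within-group SDs of 0.04 to 0.13.

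The 27-hydroxycholesterol route has a pair of members. Cyp27a1, the mitochondrial side-chain hydroxylase, ran from 12.85 to 13.05 in double knockout livers and from 12.98 to 13.07 in wild-type livers, and its log2 difference was -0.04 (limma adjusted p = 0.745, 95% interval -0.14 to 0.06). Cyp7b1, the oxysterol 7α-hydroxylase that follows it, had 12.21, 12.15, 12.40, 12.12 and 12.17 in double knockout replicates 1 to 5, and 11.95, 11.94, 12.15, 11.90 and 11.76 in wild-type replicates 1 to 5. Of the double knockout arrays, 3 lay above all wild-type arrays, and wild-type replicate 3 fell within the double knockout range. The log2 difference of Cyp7b1 was 0.27 (SE 0.07), 1.20-fold with a 95% interval of 1.08 to 1.35, and it was not called (limma adjusted p = 0.115). Over the fits without 1 array its difference ran from 0.22 to 0.32 and it was called in 0 of 10, with limma adjusted p from 0.0618 to 0.215.

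Among the enzymes that act on the rings, Hsd3b7 oxidises the 3β-hydroxyl group of the 7α-hydroxylated sterols, Cyp8b1 adds the 12α-hydroxyl group that leads to cholic acid, and Akr1d1 reduces the double bond of the ring. Akr1d1 had 10.52, 10.42, 10.48, 10.45 and 10.20 in double knockout replicates 1 to 5, and 10.54, 10.58, 10.79, 10.65 and 10.58 in wild-type replicates 1 to 5. All double knockout arrays lay below all wild-type arrays, by a margin of a few hundredths between the nearest arrays. Its log2 difference was -0.21 (SE 0.07, limma adjusted p = 0.163, 95% interval -0.36 to -0.07). Hsd3b7 ran from 12.71 to 12.79 in double knockout livers and from 12.76 to 12.88 in wild-type livers, with a difference of -0.07 (limma adjusted p = 0.418). Cyp8b1 ran from 13.32 to 13.48 in double knockout livers and from 13.39 to 13.56 in wild-type livers, with a difference of -0.07 (limma adjusted p = 0.557), so 0 of these 3 ring enzymes passed the test.

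The side-chain and conjugation enzymes were all lower by small amounts that did not pass the test. Slc27a5, the ligase that activates bile acids with coenzyme A, had 12.61, 12.52, 12.65, 12.60 and 12.62 in double knockout replicates 1 to 5, and 12.73, 12.73, 12.67, 12.74 and 12.67 in wild-type replicates 1 to 5. The groups did not overlap, and the log2 difference was -0.11 (SE 0.04, limma adjusted p = 0.208, 95% interval -0.20 to -0.03). Baat, which joins bile acids to taurine or glycine, ran from 10.69 to 10.85 in double knockout livers and from 10.77 to 10.96 in wild-type livers, with a difference of -0.10 (limma adjusted p = 0.340, 95% interval -0.21 to 0.002). Amacr, the racemase that prepares the side chain for shortening in peroxisomes, ran from 12.48 to 12.53 in double knockout livers and from 12.42 to 12.64 in wild-type livers, with a difference of -0.06 (limma adjusted p = 0.621, 95% interval -0.16 to 0.04). The lowest wild-type values of Amacr, Baat and Cyp7b1 were all those of wild-type replicate 5, the array with the highest mean of pancreatic acinar markers. For the other enzymes the lowest wild-type array was replicate 1 (Cyp7a1, Cyp8b1 and Akr1d1), 2 (Cyp39a1), 3 (Hsd3b7 and Slc27a5) or 4 (Cyp27a1). In a fit with the pancreatic marker mean as an added term, chosen with the data in view, the differences were -0.07 for Amacr, -0.12 for Baat and 0.25 for Cyp7b1.

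Cyp46a1, which makes the 24-hydroxycholesterol that CYP39A1 uses, fell in double knockout livers. Its level was 7.09, 6.83, 6.99, 7.02 and 6.93 in double knockout replicates 1 to 5, and 7.48, 7.33, 7.14, 7.55 and 7.42 in wild-type replicates 1 to 5. Every double knockout array lay below every wild-type array, opposite to Cyp39a1. The groups averaged 6.97 ± 0.10 in double knockout and 7.39 ± 0.16 in wild-type livers (SD, n = 5 each). The log2 change was -0.41 (SE 0.08, limma adjusted p = 0.0312), 1.33-fold lower. These levels stand little above 6.54, the 95th percentile of 1108 olfactory receptor probe sets, genes not known from liver, taken as a guide to background. Without 1 array the log2 change ran from -0.47 to -0.37, and the call was kept in 2 of 10 such fits, those without double knockout replicate 1 or wild-type replicate 3 (limma adjusted p up to 0.0755 in the other 8).

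**Figure D3:**
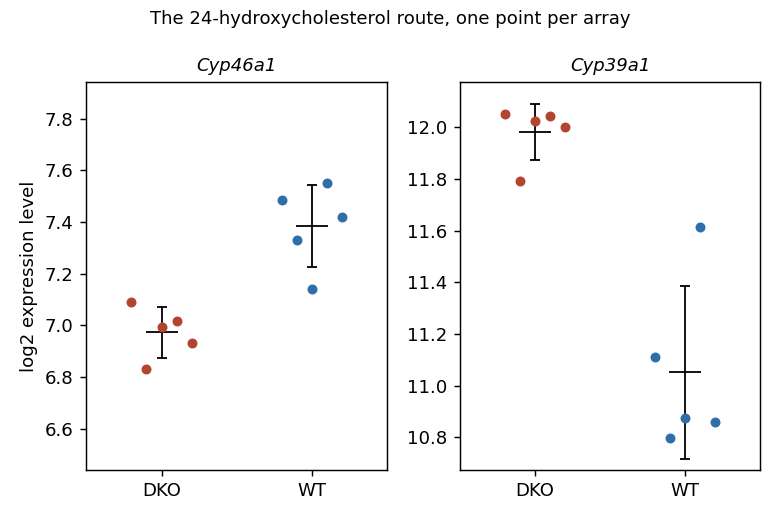
Log2 expression level of Cyp46a1 and Cyp39a1 in double knockout (DKO, left) and wild-type (WT, right) livers. Each point is 1 array (n = 5 each) and bars show mean ± SD. Cyp46a1 averaged 6.97 in DKO and 7.39 in WT livers, and Cyp39a1 averaged 11.98 in DKO and 11.05 in WT livers.

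Cyp46a1 was the only member called among 19 measured genes of a wider bile acid synthesis list of 22 genes, where 0.884% of all probe sets tested were called. The list held other hydroxylases, side-chain enzymes, sterol carriers and electron partners of P450 enzymes. Of these 19, 9 had a higher and 10 a lower mean in double knockout livers, and their median difference was -0.02. Cyp3a11, a P450 that also oxidises sterols and bile acids, had a difference of 0.34 (limma adjusted p = 0.0751), and Acnat2, an acyltransferase of peroxisomes, 0.54 (limma adjusted p = 0.0847). Cyp2a12, which hydroxylates bile acids again in mouse liver, had -0.06 (limma adjusted p = 0.534). Cyp3a11, Acnat2 and Cyp2a12 were picked to be named with their values in view.

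Bile acid synthesis is controlled by nuclear receptors and by signals from the gut. In a list of 27 such regulators, 25 were measured, 8 with a higher and 17 with a lower mean in double knockout livers, and the median difference was -0.08. At an unadjusted p under 0.05 there were 9 of the 25, where 15.1% of all probe sets reached that level. Of the 25, 1 was called, where 0.884% of all probe sets tested were called. It was Nr1d2 (REV-ERBβ), a repressor of the circadian clock, with 8.97 ± 0.09 in double knockout and 9.36 ± 0.17 in wild-type livers (SD, n = 5 each). The log2 change of Nr1d2 was -0.38 (SE 0.08, limma adjusted p = 0.0461). It kept its call in 1 of 10 fits without 1 array, that without wild-type replicate 4 (limma adjusted p up to 0.114 in the others), and lost it with each array centred on its median (limma adjusted p = 0.0502). The 8 others with an unadjusted p under 0.05 were not called, 7 with a lower and 1 with a higher mean in double knockout livers. Those tied to the clock were Nr1d1 (REV-ERBα), the close relative of Nr1d2, with 9.60 ± 0.38 in double knockout and 10.53 ± 0.58 in wild-type livers (SD, n = 5 each), a difference of -0.93 (limma adjusted p = 0.116), and Dbp, a clock-driven transcription factor, with -0.27 (limma adjusted p = 0.0837). Of the nuclear receptors, Nr5a2 (LRH-1), an activator of Cyp7a1 and Cyp8b1, had -0.22 (limma adjusted p = 0.128), Nr1i3 (CAR), a sensor of foreign compounds, -0.22 (limma adjusted p = 0.172) and Ppara, the fatty acid receptor of the fasted liver, -0.13 (limma adjusted p = 0.322). Klb (β-Klotho), the co-receptor for the ileal hormone FGF15, had -0.19 (limma adjusted p = 0.196) and Fgfr4, its receptor, -0.16 (limma adjusted p = 0.314). Tead1, a transcription factor of the Hippo pathway, had the higher mean, by 0.35 (limma adjusted p = 0.149). These 8 and Nr0b2 were picked to be named with their values in view. Nr0b2 (SHP), the repressor that bile acids induce, had 10.89 ± 0.46 in double knockout and 10.45 ± 0.61 in wild-type livers (SD, n = 5 each), and its difference of 0.44 did not pass (limma adjusted p = 0.512).

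Oxysterols activate the liver X receptors, and 11 of 12 listed target genes of these receptors were measured. Of these, 2 had a higher and 9 a lower mean in double knockout livers, 0 were called by limma and 5 had an unadjusted p under 0.05, against 15.1% of all probe sets, and the median difference was -0.09. Srebf1, the lipogenic transcription factor, had -0.21 (limma adjusted p = 0.203), and Abcg8, a subunit of the sterol exporter into bile, -0.19 (limma adjusted p = 0.214). Of 13 measured transporters of bile acids and sterols, 5 had a higher and 8 a lower mean, 0 were called by limma and 5 had an unadjusted p under 0.05, against the same 15.1%, with -0.24 for the basolateral exporter Abcc3 (limma adjusted p = 0.0738) and 0.33 for its relative Abcc4 (limma adjusted p = 0.0945).

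Across the 10 arrays, members were compared after the mean of each group had been subtracted, so that the difference between groups did not enter. None of the 45 pairs passed after adjustment, and 4 had an unadjusted exact permutation p under 0.05. The lowest p was that of Cyp7a1 with Akr1d1, with Pearson r = 0.87 (exact permutation p = 0.00694, adjusted p = 0.313) and Spearman rho = 0.60 (exact permutation p = 0.109, adjusted p = 0.816). For Cyp7a1 with Cyp8b1, r was 0.69 (exact permutation p = 0.0408, adjusted p = 0.416) and rho 0.65 (exact permutation p = 0.0761, adjusted p = 0.685). Leaving out the 2 arrays with the most extreme Cyp7a1 levels, double knockout replicate 5 and wild-type replicate 1, gave r = 0.67 with Akr1d1 and r = 0.23 with Cyp8b1, so the second relation rested on those arrays. Cyp39a1 with Slc27a5 had r = 0.56 (exact permutation p = 0.0453, adjusted p = 0.416) and rho = 0.40 (exact permutation p = 0.311, adjusted p = 0.824), and r = 0.89 without wild-type replicates 2 and 4. Without double knockout replicate 1 a single pair passed, Hsd3b7 with Akr1d1, with r = -0.85 (exact permutation p = 0.000694, adjusted p = 0.0313). Over all 10 arrays that pair had r = -0.66 (exact permutation p = 0.0465, adjusted p = 0.416). Its r was -0.37 without wild-type replicate 3 and double knockout replicate 3, the arrays with the most extreme Hsd3b7 levels.

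**Figure D4:**
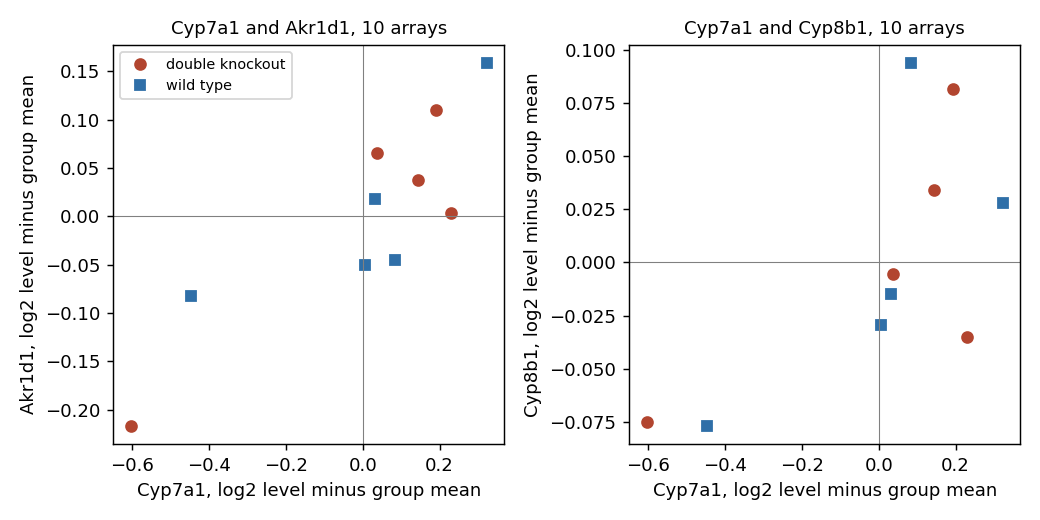
Log2 level of Akr1d1 (left) and Cyp8b1 (right) against Cyp7a1 in the 10 arrays, each minus the mean of its group. Circles are double knockout and squares wild-type arrays (n = 5 each). The 2 arrays at the far left, 1 of each group, have low Cyp7a1 together with low Akr1d1 and low Cyp8b1.

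Promoter windows of 300 bases were matched for 4 of the 10 enzymes (Cyp27a1, Akr1d1, Hsd3b7 and Cyp8b1), from RefSeq on build GRCm38.p6. The outermost annotated start of the gene lay at position 251 of the window, counted from its 5′ end, for Hsd3b7 and Cyp8b1. For Akr1d1 it lay at position 56, and for Cyp27a1 137 bases upstream of the window. The window of Cyp8b1 is shown because it holds a match and the outermost start in its usual place, printed 5′ to 3′ in the direction of the gene. Searched on either strand were CAAGGNCA, the element of LRH-1, and AGGTCA, the half-site of many nuclear receptors, and capitals mark a match.
Cyp8b1, chr9:121916256-121916555, minus strand: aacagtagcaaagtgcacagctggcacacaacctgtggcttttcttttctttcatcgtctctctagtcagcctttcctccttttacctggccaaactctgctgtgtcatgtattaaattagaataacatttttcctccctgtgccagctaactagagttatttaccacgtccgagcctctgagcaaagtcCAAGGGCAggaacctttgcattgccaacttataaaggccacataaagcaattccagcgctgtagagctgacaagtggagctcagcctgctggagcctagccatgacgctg
The Cyp8b1 window held 1 match to CAAGGNCA, beginning at position 191, upstream of the start. The Akr1d1 window held 2 matches to AGGTCA, beginning at positions 19 and 41, also upstream of its outermost start. Neither sequence was found in the windows of Cyp27a1 and Hsd3b7. Among 32851 windows of this length in the table, 16.3% held AGGTCA and 6.71% held CAAGGNCA, so these matches describe the letters and mark no bound site.

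Neighbouring genes on chromosome 17 were examined beside Cyp39a1. Of the 5 protein-coding genes on either side in the GRCm38.p6 gene order, 9 of 10 had a probe set of their own, and 2 of these 9 were called, where 0.884% of all probe sets tested were. Rcan2, a regulator of the phosphatase calcineurin and the next gene on one side, rose. It had 7.76, 7.53, 7.53, 7.60 and 7.51 in double knockout replicates 1 to 5, and 7.16, 7.38, 7.26, 7.32 and 7.29 in wild-type replicates 1 to 5. The groups did not overlap, and the log2 change of Rcan2 was 0.30 (SE 0.06, limma adjusted p = 0.0365). Enpp5, a member of the nucleotide pyrophosphatase family and the second gene on the same side, fell. It had 9.87, 9.92, 9.87, 9.72 and 9.64 in double knockout replicates 1 to 5, and 10.11, 10.11, 10.02, 10.20 and 10.11 in wild-type replicates 1 to 5. Again the groups did not overlap, and the log2 change was -0.30 (SE 0.06, limma adjusted p = 0.0402). The 7 neighbours that were not called had differences from -0.12 to 0.25. Of the 10 fits without 1 array, Rcan2 kept its call in the 1 without double knockout replicate 1 (limma adjusted p up to 0.0934 in the others). Enpp5 kept it in the 2 without double knockout replicate 1 or 2 (limma adjusted p up to 0.104 in the others). The knocked-out genes lie on chromosomes 13 and 10, which hold none of the 10 enzymes, and an effect of chromosomal position was not tested.

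**Figure D5:**
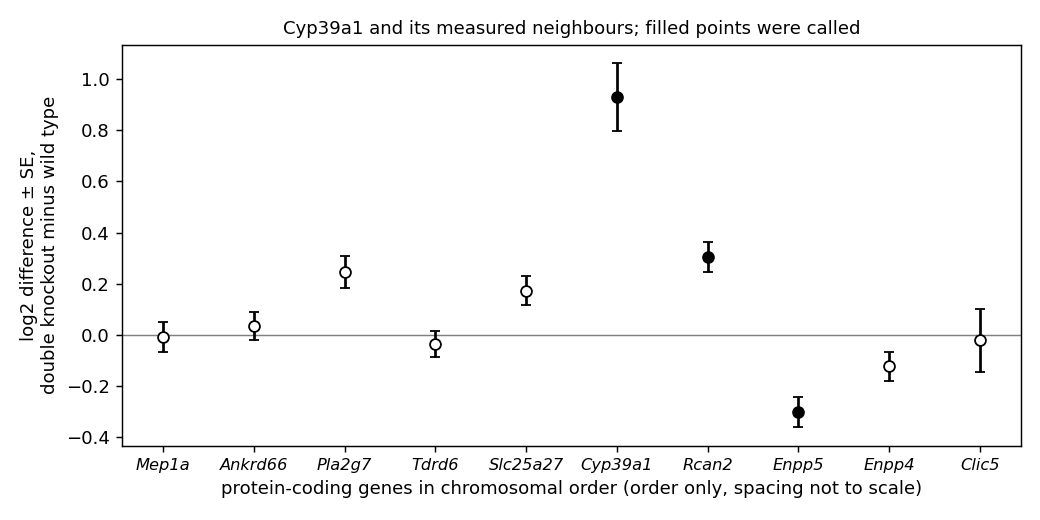
Log2 difference (double knockout minus wild type) ± SE of Cyp39a1 and the 9 measured genes among the 5 protein-coding neighbours on either side, in chromosomal order with spacing not to scale. Filled points passed an adjusted p of 0.05 in limma. Cyp39a1 stands at 0.93, Rcan2 at 0.30 and Enpp5 at -0.30.

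By the root mean square distance of mean-centred levels over the 10 arrays, the genes nearest to Cyp39a1 among 17341 others were Lpl (0.23), Hmox1 (0.24), Tspan33 (0.24) and Krt23 (0.25), against 0.52 for a flat profile. Group means were not subtracted here, so the gap by which Cyp39a1 was chosen entered this distance. The log2 differences (double knockout minus wild type) were 1.13 for Lpl, 0.56 for Hmox1, 0.65 for Tspan33 and 0.85 for Krt23. Their nearness therefore partly repeats that gap, and nothing is read from it about variation within groups. The genes nearest to Cyp7a1 were Slc4a1 (0.15), Nek3 (0.16), Mast4 (0.16) and Fundc2 (0.16), against 0.28 for a flat profile. In mouse liver Cyp39a1 is known as higher in females and Cyp7b1 as higher in males. Besides Cyp39a1, 17 female-biased genes were measured, 10 with a higher and 7 with a lower mean in these male double knockout livers, with a median difference of 0.06. With Cyp39a1 counted, 10 of 18 stood above the olfactory receptor guide to background, against 18 of 20 male-biased genes with Cyp7b1 counted. Many of the female-biased directions are therefore those of signals near background. Limma called 0 of the 17, and the lowest p belonged to Trim24 (0.49, limma adjusted p = 0.108) and Fmo2 (0.65, limma adjusted p = 0.109). The largest difference of the 17 was that of Nipal1, 1 of the 7 with a lower mean (-0.73, limma adjusted p = 0.143). Nipal1 was named with its values in view. Besides Cyp7b1, 19 male-biased genes were measured, 6 with a higher and 13 with a lower mean, with a median difference of -0.10. Of these 4 were called, where 0.884% of all probe sets were, all lower: Obp2a (-2.68, limma adjusted p = 0.00733), C6 (-0.71, limma adjusted p = 0.00685), Ces2e (-0.45, limma adjusted p = 0.0237) and Nox4 (-0.40, limma adjusted p = 0.0365). The list was drawn up with earlier results of these data known, so nothing is read from that count. Of the 6 with a higher mean 0 were called. Among them, named with their values in view, were Selenbp2 (1.04, limma adjusted p = 0.177), Elovl3 (0.38, limma adjusted p = 0.137) and Slco1a1 (0.23, limma adjusted p = 0.215). Without 1 array, Obp2a and C6 kept their call in 10 of 10 fits. Ces2e kept it in 6, all but those without double knockout replicate 4 or 5 or wild-type replicate 2 or 3, and Nox4 in 1, that without double knockout replicate 2. With the replicate number as a block, Obp2a and Nox4 were not called (limma adjusted p = 0.0680 and 0.0932).

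Array medians lay between 6.43 and 6.46 and correlations between arrays between 0.989 and 0.995. Macroh2a1 averaged 9.11 ± 0.07 in double knockout and 9.60 ± 0.07 in wild-type livers (SD, n = 5 each). Its log2 change was -0.49 (limma adjusted p = 0.00128), and Macroh2a2, near background, had -0.20 (limma adjusted p = 0.514). The sources used here do not place these probe sets inside or outside the deleted parts, so they check the labels only in part. All 12 hepatocyte markers were above the background guide and 0 were called by limma, nor had any an unadjusted p under 0.05 (Pck1 -0.07, Hnf4a 0.05). All 12 macrophage markers had higher means in double knockout livers, and 2 were called, where 0.884% of all probe sets were, Cd163 (0.44, limma adjusted p = 0.0284) and Marco (0.61, limma adjusted p = 0.0475). The marker lists were drawn up with earlier results of these data known, so nothing is read from these counts. Without 1 array, Marco kept its call in 2 of 10 fits, those without double knockout replicate 5 or wild-type replicate 4. Cd163 kept it in 6, all but those without double knockout replicate 2, 3 or 4 or wild-type replicate 2. Neither was called with the replicate block (limma adjusted p = 0.0851 for Cd163 and 0.0932 for Marco). The mean of the 12 markers ran from 9.06 to 9.39 in double knockout and from 8.81 to 9.15 in wild-type arrays. Wild-type replicate 4, the wild-type array with the highest Cyp39a1, also had the highest macrophage mean among the wild-type arrays. Among the double knockout arrays, replicate 2 had the highest macrophage mean of all arrays (9.39) and the lowest double knockout Cyp39a1 (11.79). In the other double knockout arrays the macrophage mean ran from 9.06 to 9.19 and Cyp39a1 from 12.00 to 12.05. Whether Cyp39a1 varied with the macrophage mean within groups was not tested. In a fit with the macrophage mean as an added term, chosen with the data in view, the Cyp39a1 difference was 0.76 (SE 0.19) and that of Cyp7a1 -0.38. In bulk tissue more cells of a type and more RNA per cell cannot be told apart.

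The mean of 11 measured pancreatic acinar markers ran from 6.15 to 8.97 in double knockout and from 6.09 to 11.01 in wild-type arrays, with 2 higher and 9 lower means in double knockout livers and 0 called by limma, also at an unadjusted p under 0.05 (Try5 0.12, Prss2 -1.05). Without the 4 arrays of highest mean, wild-type replicates 4 and 5 and double knockout replicates 1 and 2, the Cyp39a1 difference was 1.10 (SE 0.08) and that of Cyp7a1 -0.20. Limma called 1 of 7 cholangiocyte markers (Krt23, 0.85, adjusted p = 0.0161), where 0.884% of all probe sets were called. This list too was drawn up with earlier results known, so nothing is read from that count. Of the 7, 5 had a higher and 2 a lower mean in double knockout livers, with a median difference of 0.03. Krt23 kept its call in 8 of 10 fits without 1 array. Limma called 0 of 8 endothelial (Cdh5 0.13, Pecam1 0.12), 0 of 8 stellate cell (Reln -0.17, Colec11 -0.17) and 0 of 3 erythroid markers (Tfrc -0.26, Epb42 0.10). Of these, 1, 2 and 1 had an unadjusted p under 0.05, where 15.1% of all probe sets reached that level.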

How the data were processed

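The authors deposited log2 expression levels for each probe set on 10 arrays. The program was Affymetrix Expression Console, as the submitters' processing notes have it. The sources used here do not give its summarisation or normalization. Labelled cDNA came from 250 ng of total liver RNA, per the labels' protocols. Scanner files were not analysed here. The number of arrays limits the precision.

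The 10 enzymes, gene lists and tests were chosen with earlier results of these data known. Counts of list members called therefore describe the lists and are not tests of them. Named were the 10 enzymes, called list members or else the 2 of lowest p, called neighbours of Cyp39a1, the 4 nearest profiles and the 3 member pairs of lowest p. Exceptions are stated beside them. A gene was represented by its probe set of highest mean. Of 41345 probe sets, 23521 had 1 gene symbol, 1814 several and 16010 none. The 25335 with a symbol were fitted with limma 3.58.1 in R 4.3.3 (lmFit, eBayes, two-sided, Benjamini-Hochberg adjustment over all 25335), with group as the only term. Same-numbered arrays of the 2 groups deviated together (correlation over 0.1) in 1 of 5 pairs, so the numbers were not taken as pairs. Member correlations used exact two-sided permutation within groups. On simulated data for this comparison with 25335 probe sets, 60.3% of changes of 0.3, 89.7% of 0.5 and 97.1% of 1 on the log2 scale were called. Alternatives were eBayes options, array weights, scaling, filters, the replicate block, marker covariates and left-out arrays.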

Additional observations from a re-analysis of the deposited data

Results flagged for a closer look

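In 2 of the 20 groups of 5 arrays (10 enzymes in double knockout and wild-type livers), 1 array stood apart by Dixon's gap test at the 95% level, which flags about 1 in 20 groups by chance. For Cyp39a1, double knockout replicate 2 was lowest among the double knockout arrays, at 11.79 against 12.00 for the nearest, with a gap of 0.807 of the range. For Cyp7a1, double knockout replicate 5 was lowest among the double knockout arrays, at 12.41 against 13.05 for the nearest, with a gap of 0.770 of the range. That array also had the lowest Akr1d1 (10.20), Cyp8b1 (13.32) and Baat (10.69) of the double knockout arrays.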

How the results depend on the processing

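The Cyp39a1 difference, given as a description because the gene was chosen by it, ran from 0.87 to 1.07 without 1 array. It was 0.76 with the macrophage marker mean in the fit, an alternative chosen after seeing the data, and 0.93 to 1.10 otherwise. The number of enzymes called, which the choice of Cyp39a1 fixed, was 0 with the macrophage term, where 23 probe sets were called in all, and 1 in each other fit. The median difference over the 10 enzymes ran from -0.08 to -0.05 without 1 array and from -0.09 to -0.05 otherwise. The Cyp7a1 difference, not called, ran from -0.18 to 0.08 without 1 array, turning positive without double knockout replicate 5 (0.0816) and wild-type replicate 3 (0.0115). It was -0.38 with the macrophage term and -0.20 without the 4 arrays of highest pancreatic marker mean, also chosen after seeing the data. The 8 other enzymes kept their direction and were called in 0 of the fits.

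Over all probe sets the 224 calls became 377 with only probe sets above the olfactory receptor guide, 75 with every row tested, 76 with the replicate block and 68 without the 4 arrays of highest pancreatic marker mean. Without 1 array they ran from 64 to 253. Counts far below 224 came without wild-type replicates 2 (64), 3 (144) and 4 (131) and double knockout replicates 2 (135), 3 (124), 4 (68) and 5 (87). With the replicate block, whose numbers were not shown to pair the arrays, Cyp46a1, Rcan2, Enpp5 and Nr1d2 were not called (limma adjusted p = 0.0655, 0.131, 0.117 and 0.117), nor with every row tested (0.0732, 0.0789, 0.0866 and 0.0994), nor without the 4 arrays of highest pancreatic marker mean (0.190, 0.177, 0.135 and 0.144). With the macrophage term Nr1d2 was called (0.0376) and the other 3 were not (0.232, 0.207 and 0.0997). Obp2a and C6 were each called in 10 of 12 alternatives other than leaving out 1 array, and both lost the call without the 4 arrays (0.0557 and 0.0775). Ces2e and Krt23 were called in 10 of 12, Nox4 and Cd163 in 8 and Marco in 7. The changes of these 11 genes kept their direction throughout. Among the 45 member pairs, the number passing ran from 0 to 1 without 1 array. Log2 levels from arrays carry no detection calls here, so how far low signals such as Cyp46a1 stand above background is limited to the olfactory receptor guide.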
